A study of Mus musculus with 4 samples.

Results

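The guanylate-binding proteins were measured in interscapular brown adipose tissue (iBAT) and epididymal white adipose tissue (eWAT) of mice with and without ASK1, the stress-activated kinase encoded by Map3k5. The family was taken by gene name: 13 probes named Gbp1, Gbp2, Gbp3, Gbp4, Gbp5, Gbp6, Gbp8, Gbp9, Gbp10 or Gbp11, of 55681 probes on the array, each read on its own. The gene named Gbp1 in the files is Gbp2b in current nomenclature. The family was chosen because the Gbp1 signal was at the floor without ASK1, so all differences between ASK1-deficient and WT arrays below are a description of those values and carry no test. A pair of Gbp7 probes, outside the 10 chosen names, is given beside them.

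There were 4 arrays, 1 for each of WT iBAT, ASK1-deficient iBAT, WT eWAT and ASK1-deficient eWAT. The deficient mice are labelled ASK1KO and the WT mice wildtype. All mice were untreated males aged 10 weeks, and each array held Cy3-labelled RNA mixed from 3 mice, so the spread between mice is not known. The study's methods name C57BL/6 J as the strain of its mice unless stated otherwise, and refer to earlier work for how the knockout was made. They also say that the WT and the ASK1-deficient mice were kept as separate breeding lines, so a difference between the genotypes and a difference between the lines cannot be told apart in any value below.

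Guanylate-binding proteins are large GTPases of the dynamin superfamily that cells make in response to interferon. Interferon-gamma acts through JAK kinases and gamma activated sites in the promoters of its target genes, and through IRF1, which binds interferon stimulated response elements, and the family is among the genes this switches on most strongly. The proteins gather on microbes and on the vacuoles that hold them, and help inflammasomes to assemble. In adipose tissue such responses are usually studied in macrophages, lymphocytes and endothelial cells rather than in the fat cells themselves. In mice the genes lie in a pair of clusters, on chromosomes 3 and 5.

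The first 30 bases of 4 probes are given, since the contrast at the chromosome 3 cluster rests on them. They are both Gbp1 probes, an unnamed probe upstream of them, and the Gbp2 probe downstream of them, all on the plus strand of mm9. Each probe is 60 bases long and no base is capitalised.
Gbp1, first probe (chr3:142281466-142281525): gttgggatttgtttttacaacacagtgata
Gbp1, second probe (chr3:142281897-142281956): tcaaaaacactttctccttctaagagtttt
Unnamed probe (chr3:142274468-142274527): aatggcagagcaacaaagaatcatatccct
Gbp2 (chr3:142300719-142300778): gtttctcctgtataatcttaagtgttcctc
The exons these positions fall in were not assigned, because no annotation of mm9 was used here.

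The promoters of Gbp2b, Gbp2 and Gbp5 are shown because Gbp1 (Gbp2b) was lower by more than 2-fold without ASK1 and neither Gbp2 nor Gbp5 was. They are the 250 bases before each start in RefSeq (GRCm38.p6, plus strand), with matches to the interferon stimulated response element, GAAANNGAAA on either strand, and to the gamma activated site, TTCNNNGAA, in capitals.
Gbp2b (chr3:142594597-142594846): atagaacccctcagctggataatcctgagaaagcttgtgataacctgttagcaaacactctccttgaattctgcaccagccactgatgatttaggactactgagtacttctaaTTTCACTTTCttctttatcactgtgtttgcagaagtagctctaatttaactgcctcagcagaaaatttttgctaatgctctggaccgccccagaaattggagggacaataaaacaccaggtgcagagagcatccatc
Gbp2 (chr3:142620413-142620662): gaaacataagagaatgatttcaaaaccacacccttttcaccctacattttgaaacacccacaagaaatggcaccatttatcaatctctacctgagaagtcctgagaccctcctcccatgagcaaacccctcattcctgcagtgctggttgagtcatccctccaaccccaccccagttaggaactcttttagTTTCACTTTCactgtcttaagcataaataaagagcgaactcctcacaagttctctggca
Gbp5 (chr3:142496684-142496933): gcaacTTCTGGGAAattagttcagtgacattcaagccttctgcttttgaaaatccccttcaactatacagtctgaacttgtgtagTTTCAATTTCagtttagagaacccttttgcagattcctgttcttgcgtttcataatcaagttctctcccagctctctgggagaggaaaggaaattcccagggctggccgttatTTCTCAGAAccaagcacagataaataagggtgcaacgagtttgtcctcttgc
The Gbp2b and Gbp2 promoters hold the same 10 letters, TTTCACTTTC, from position -137 to -128 and from position -59 to -50 relative to the start. Of the 10 members, 4 matched a promoter in the table, and with Gbp7 this made 5 genes of the family. All 5 held the response element, Gbp3 in 1 of its 2 listed promoters, against 2.98% of 32851 promoters searched over the same length. The gamma activated site was found 2 times in Gbp5 and 2 times in Gbp7, and in none of Gbp2b, Gbp2 and Gbp3, against 7.02% of all promoters. A match of letters is a description and not a binding site.

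The processed signal is the intensity of a spot after the scanner software has removed its background, and it was compared only within a probe. Pairs of signals are given with the WT array first and the ASK1-deficient array second. A probe counted as detected, or well above background, where the software marked it so. For differences, the log2 signal was scaled by subtracting the 75th percentile of the array, and the log2 ratio is the ASK1-deficient minus the WT value on that scale. That percentile ranged from 356 to 673 over the 4 arrays, and 28985 to 33389 probes were well above background. No probe was saturated. The spots of probes printed several times on the array gave a median SD of the log2 ratio of 0.0869 in iBAT (276 probes) and 0.0599 in eWAT (292 probes), a technical spread that leaves out the mice. Map3k5 itself gave 448 and 117 in iBAT and 701 and 194 in eWAT at 1 of its probes, 4.0-fold and 3.40-fold lower after scaling. Its other probe gave 1081 and 1082 in iBAT and 1264 and 836 in eWAT, log2 ratios of -0.06 and -0.51.

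Gbp1 was bright in both tissues of WT mice and at or near the background in both tissues of ASK1-deficient mice, which came from a line of their own. At the first Gbp1 probe the signal was 309 and 3.90 in iBAT and 999 and 22.7 in eWAT. At the second it was 326 and 4.66 in iBAT and 960.4 and 19.9 in eWAT. Both ASK1-deficient arrays were thus below both WT arrays at both probes. The ASK1-deficient iBAT spots were not well above background at either probe, and the values given for them are surrogates set by the software. The raw mean signals of those spots were 40.1 and 39.5, below the local backgrounds of 48 and 46. The ASK1-deficient eWAT spot was just above the detection limit at the first probe and not well above background at the second.

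For a spot not well above background only a bound can be given. It sets the WT level against the dim spot, or against the faintest detected spot of the same array where that is brighter. By that bound Gbp1 in iBAT was lower without ASK1 by at least 18.7-fold at its first probe and at least 19.7-fold at its second. In eWAT it was 41.3-fold lower at the first probe, measured on both arrays, and at least 43.6-fold lower at the second. With no filter on dim probes the ratios in iBAT were 82.7-fold and 73.1-fold, which rest on the surrogate values. With normexp background correction and an offset of 50, which lifts dim spots, the log2 ratios were -2.35 and -2.18 in iBAT and -3.49 and -3.41 in eWAT. Of 28185 probes well above background on both WT arrays, 23 were at least 2-fold lower in ASK1-deficient tissue on both pairs of arrays, both Gbp1 probes among them, and since many of these values are bounds they were not ranked. The spots printed next to the Gbp1 spots were compared only where both genotypes had a detected signal, 12 to 16 for each probe and tissue. Their median log2 ratios were between -0.02 and 0.05. Of those spots 0 were at least 2-fold lower, and 1, beside the second Gbp1 probe in iBAT, was at least 2-fold higher, at 1.83. A neighbour that went dark without ASK1 was left out, so these counts cannot decide whether a patch of the array was dark there.

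**Figure D1:**
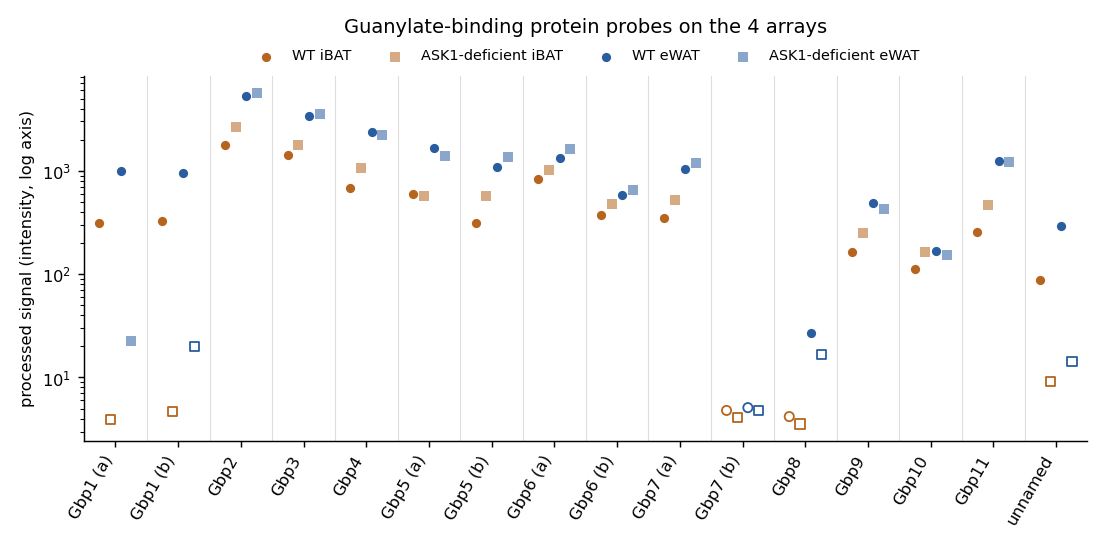
Processed signal (intensity, log axis) of the 13 member probes, both Gbp7 probes and the unnamed probe on each of the 4 arrays, brown for iBAT and blue for eWAT, circles for WT and squares for ASK1-deficient. Open symbols are spots not well above background, (a) and (b) are probes of 1 gene in order of position, and signals are comparable within a probe only; both Gbp1 probes lie at 309 to 999 in WT and at 3.90 to 22.7 without ASK1.

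An unnamed probe had the pattern of Gbp1. It lies on the plus strand 6938 bases before the first Gbp1 probe and 38376 bases after the Gbp3 probe, and the files give it no gene. Its signal was 87.3 and 9.08 in iBAT and 294 and 14.3 in eWAT. Both WT arrays were well above background and both ASK1-deficient arrays were not, which makes it lower by 5.27-fold or more in iBAT and by 13.3-fold or more in eWAT. Its position and its 30 bases are given above with those of Gbp1. Whether it detects the same transcript as the Gbp1 probes was not tested.

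The neighbours of Gbp1 on both sides were not lower without ASK1. Gbp2, a member known to act on parasite vacuoles and in the caspase-11 pathway, lies 18762 bases beyond the second Gbp1 probe. Its signal was 1772 and 2652 in iBAT and 5321 and 5656 in eWAT, with log2 ratios of 0.52 and 0.18. Both eWAT arrays were above both iBAT arrays, and each ASK1-deficient array was above the WT array of its tissue. Gbp3, on the other side of the unnamed probe, gave 1413 and 1777 in iBAT and 3369 and 3572 in eWAT, with log2 ratios of 0.27 and 0.17 and the same order of arrays.

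Gbp5, which is known for its part in inflammasome assembly, has probes that disagreed. The probe at chr3:142181426-142181485 gave 596 and 576 in iBAT and 1647 and 1383 in eWAT, with log2 ratios of -0.11 and -0.16. The probe at chr3:142184779-142184838 gave 314 and 572 in iBAT and 1098 and 1357 in eWAT, with log2 ratios of 0.80 and 0.39. The first was lower and the second higher without ASK1, in both tissues. The files list 2 Ensembl transcripts for both probes, and the RefSeq transcript for the second probe only. Gbp7 at chr3:142209379-142209438 gave 346 and 527 in iBAT and 1040.0 and 1195 in eWAT, with log2 ratios of 0.54 and 0.29, and its second probe was dark on all 4 arrays, with signals from 4.09 to 5.11.

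The genes that flank the chromosome 3 cluster differed from the Gbp1 pattern as well. Within 1 Mb of a family probe, 17 other probes lie on chromosome 3. Of those, 8 were well above background on at least 1 iBAT array and 9 on at least 1 eWAT array, and the unnamed probe was the only one at least 2-fold lower, in both tissues. The other measured probes there (Pdlim5, Ccbl2, Gtf2b and Pkn2, and Bmpr1b in eWAT) ranged from -0.85 to 0.18 in iBAT and from -0.54 to 0.07 in eWAT. Both Ccbl2 probes were lower in ASK1-deficient iBAT, with log2 ratios of -0.61 and -0.85, and close to 0 in eWAT, with -0.04 and -0.15.

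**Figure D2:**
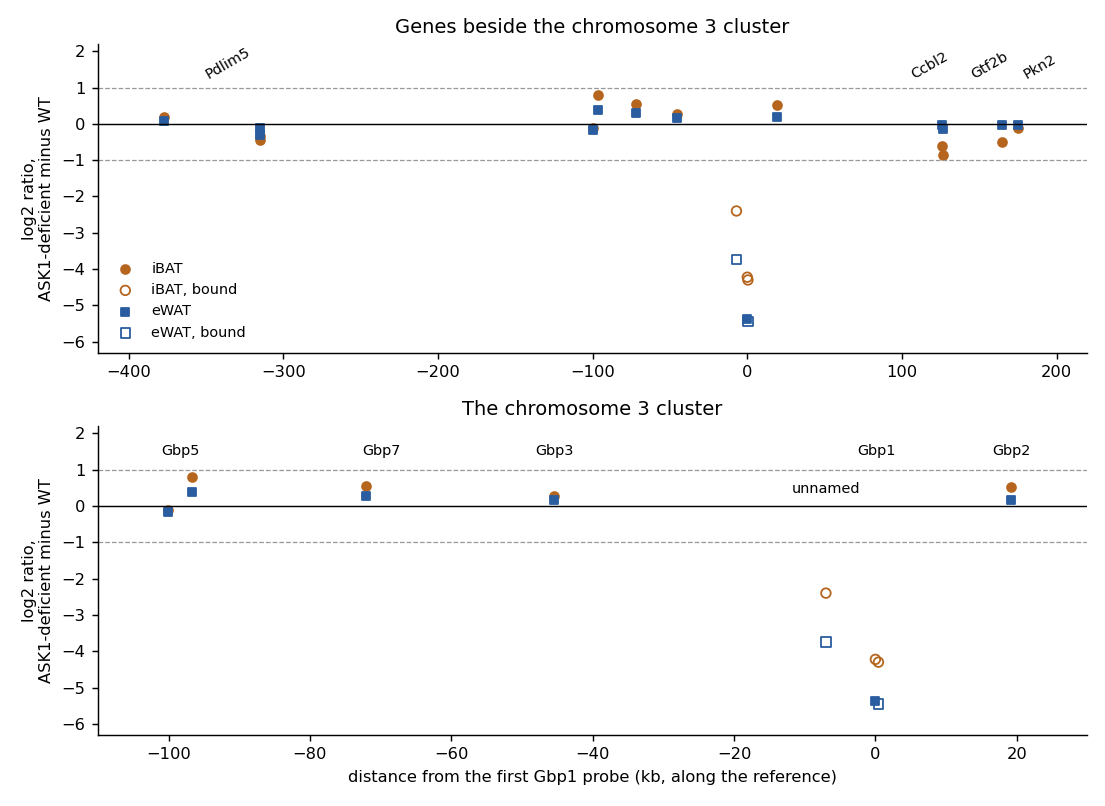
Log2 ratio (ASK1-deficient minus WT) of probes along chromosome 3 against their distance from the first Gbp1 probe in kb, brown circles for iBAT and blue squares for eWAT, above with the flanking genes and below over the cluster alone. Open symbols are bounds, for probes well above background in WT only; the Gbp1 probes and the unnamed probe lie below -2, and every other probe shown lies between -1 and 1.

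The members of the chromosome 5 cluster, all on the minus strand, were mostly higher in ASK1-deficient iBAT and close to WT in eWAT, where the signs of Gbp4 and Gbp11 differed between scalings. Gbp11 (chr5:105752145-105752204) gave 254 and 470 in iBAT and 1245 and 1224 in eWAT, with log2 ratios of 0.82 and 0.06. Gbp4 (chr5:105544852-105544911), once named macrophage activation 2, gave 689 and 1075 in iBAT and 2392 and 2223 in eWAT, with log2 ratios of 0.58 and -0.02. Both had the WT iBAT array lowest. Gbp9 (chr5:105508946-105509005) gave 163 and 248 in iBAT and 492 and 424 in eWAT, with log2 ratios of 0.55 and -0.13. Gbp10 (chr5:105644753-105644812) gave 112 and 164 in iBAT and 169 and 152 in eWAT, with log2 ratios of 0.49 and -0.06.

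Gbp6 was the member of this cluster that was higher without ASK1 in both tissues by a like amount. Its probe at chr5:105700056-105700115 gave 830.0 and 1027 in iBAT and 1342 and 1611 in eWAT, with log2 ratios of 0.25 and 0.35. Its probe at chr5:105702128-105702187 gave 372 and 478 in iBAT and 585 and 647 in eWAT, with log2 ratios of 0.30 and 0.23. The files list the RefSeq transcripts of both Gbp6 and Gbp10 for the second Gbp6 probe and for the Gbp10 probe, so the signals of these genes cannot be separated there. Gbp8 (chr5:105443951-105444010) was well above background in WT eWAT only, with signals of 4.18 and 3.54 in iBAT and 26.7 and 16.7 in eWAT, where ASK1 deficiency went with a level at least 1.21-fold lower. On both iBAT arrays it was not well above background.

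Taking the 10 member probes other than those of Gbp1 and Gbp8, 9 were above 0 and 1 below 0 in iBAT, with a median log2 ratio of 0.50 and a range from -0.11 to 0.82. In eWAT 6 were above 0 and 4 below 0, with a median of 0.12 and a range from -0.16 to 0.39. Over all probes measured on both arrays 43.8% were above 0 in iBAT, with a median of -0.05 (28384 probes), and 57.7% in eWAT, with a median of 0.03 (31725 probes), so the share of members above 0 in eWAT was about that of the array. None of the 10 reached 2-fold in either tissue. Over the array, 1.37% of probes were at least 2-fold lower and 1.46% at least 2-fold higher in iBAT, bounds included, and 1.28% lower and 0.799% higher in eWAT. The members at least 2-fold lower were both Gbp1 probes in each tissue, and since the family was chosen on that difference these counts are not set against the background.

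**Figure D3:**
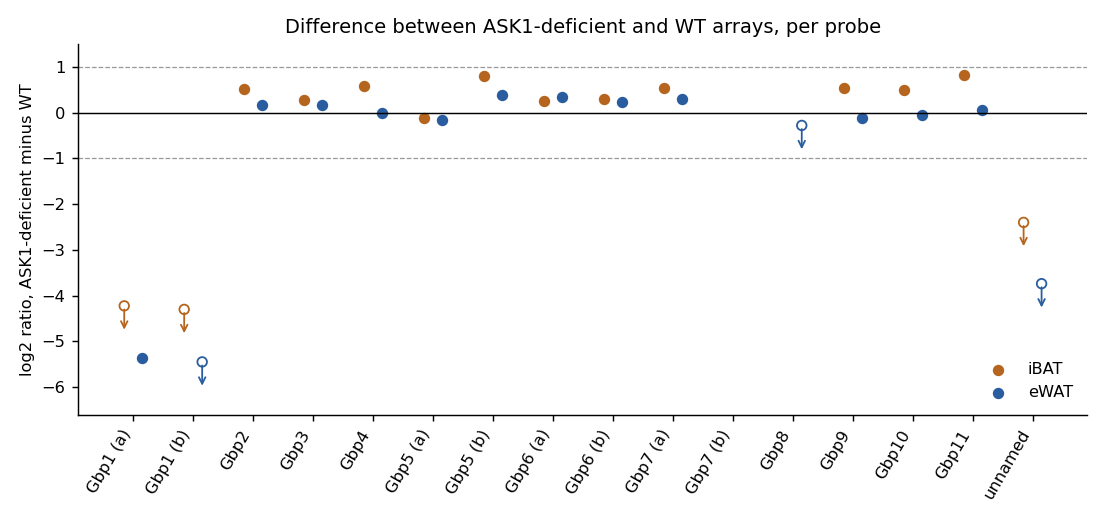
Log2 ratio (ASK1-deficient minus WT, scaled values) of each probe in iBAT (brown) and eWAT (blue), 1 array for each genotype and tissue. Open symbols with arrows are bounds and dashed lines mark a 2-fold difference; all points other than Gbp1 and the unnamed probe lie between -1 and 1, and those without a point were not well above background on either array.

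By the pattern over the 4 arrays, each probe centred on its own mean, the 5 nearest to Gbp1 of the entries named in the files lay at Euclidean distances of 3.02 to 3.72. They were a long noncoding RNA region on another chromosome, an Ensembl transcript with no gene symbol, a noncoding RNA region on chromosome 7, the vomeronasal receptor Vmn1r85 and Apom, an apolipoprotein. Only entries well above background on both WT arrays were ranked, so that trait of the 5 was set by the choice. None of the 5 was well above background on an ASK1-deficient array. The unnamed probe of the cluster was nearer, at 2.37, and the other probes of the family lay at 5.46 to 6.50. Apom gave 23.6 and 6.34 in iBAT and 110 and 19.1 in eWAT. Most of these distances rest on values below background.

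The rest of the interferon pathway was read from lists written with earlier results of these data known. Of all genes measured on both arrays of a tissue, 1.02% were at least 2-fold lower and 0.835% at least 2-fold higher in ASK1-deficient iBAT (14377 genes), and 0.865% lower and 0.286% higher in ASK1-deficient eWAT (15377 genes). The median gene had a log2 ratio of -0.07 in iBAT and 0.02 in eWAT, and 40.5% of all genes were above 0 in iBAT and 54.1% in eWAT, which is the background for the counts of list members above 0 that follow. The immunity-related GTPases (IRG) are the other interferon-inducible GTPase family that acts on vacuoles. Of 9 measured in iBAT 8 were above 0, with a median of 0.57, and of 10 measured in eWAT 9 were above 0, with a median of 0.12. Irgb10 (Gm12250), which acts with Gbp proteins on bacteria, gave 108 and 255 in iBAT and 255 and 288 in eWAT. Its log2 ratio of 1.19 in iBAT was the only one of the IRG list past 2-fold. In iBAT and eWAT, Irgm1 was at 0.39 and 0.14, Irgm2 at 0.57 and 0.10, and Igtp at 0.45 and 0.02.

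The ligand was detected on 1 array. Ifng, which encodes interferon-gamma, gave 16.4 and 12.3 in iBAT and 70.4 and 16.7 in eWAT, detected in WT eWAT only and lower without ASK1 by at least 3.20-fold there. The receptors and signalling genes of interferon-gamma were 10 measured in iBAT and 11 in eWAT, with medians of 0.21 and -0.01, and 0 past 2-fold. The receptor gene Ifngr1 was at 0.37 and 0.03, Ifngr2 at 0.21 and -0.08, Jak1 at -0.05 and -0.01, and Irf1 at 0.16 and 0.14. Ciita, the coactivator of MHC class II genes, was not well above background in WT iBAT and was at least 2.10-fold higher in ASK1-deficient iBAT. In the type I interferon list 9 genes were measured in each tissue, with medians of 0.26 and -0.03. Usp18, an inhibitor of type I receptor signalling, was 181 and 463 in iBAT and 453 and 417 in eWAT, with log2 ratios of 1.30 and -0.03.

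The target genes of interferon-gamma did not share one direction. Of 18 measured in each tissue 11 were above 0 in iBAT and 5 in eWAT, with medians of 0.10 and -0.11. Cd274, which encodes the inhibitory ligand PD-L1, was 3493 and 1766 in iBAT and 1817 and 993 in eWAT, with log2 ratios of -1.05 and -0.78. The chemokine gene Cxcl10 was 185 and 342 in iBAT, a log2 ratio of 0.82, and 616 and 264 in eWAT, a log2 ratio of -1.14. Its other probe was near the background, well above it in ASK1-deficient eWAT only. The related chemokine genes Cxcl9 and Cxcl11 were at 0.11 and 0.05 in iBAT and at -0.0057 and 0.04 in eWAT. The immunoproteasome gene Psmb8 was at 0.98 in iBAT and -0.14 in eWAT.

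Among the partners of the family in inflammasomes and cell-autonomous defence, 8 of 9 measured genes were above 0 in iBAT and 2 of 10 in eWAT, against 40.5% and 54.1% of all genes, with medians of 0.24 and -0.10. Casp4, which encodes caspase-11 in mice, was at 0.88 in iBAT and -0.20 in eWAT, and Casp1 at 0.24 and 0.13. Il1b was not detected in iBAT, and in eWAT only the WT array measured it, with ASK1-deficient tissue lower by at least 5.52-fold. The other dynamin-superfamily and atlastin GTPases were 4 of 10 above 0 in iBAT, with a median of -0.09, and 8 of 12 in eWAT, with a median of 0.01. Mx1, an antiviral relative, was not well above background in WT iBAT and at least 1.41-fold higher in ASK1-deficient iBAT. Its relative Mx2 was at 0.57 and -0.12. The ASK1 relative Map3k6 was at 0.92 and 0.55, and Map3k15 at 0.04 and -0.05.

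**Figure D4:**
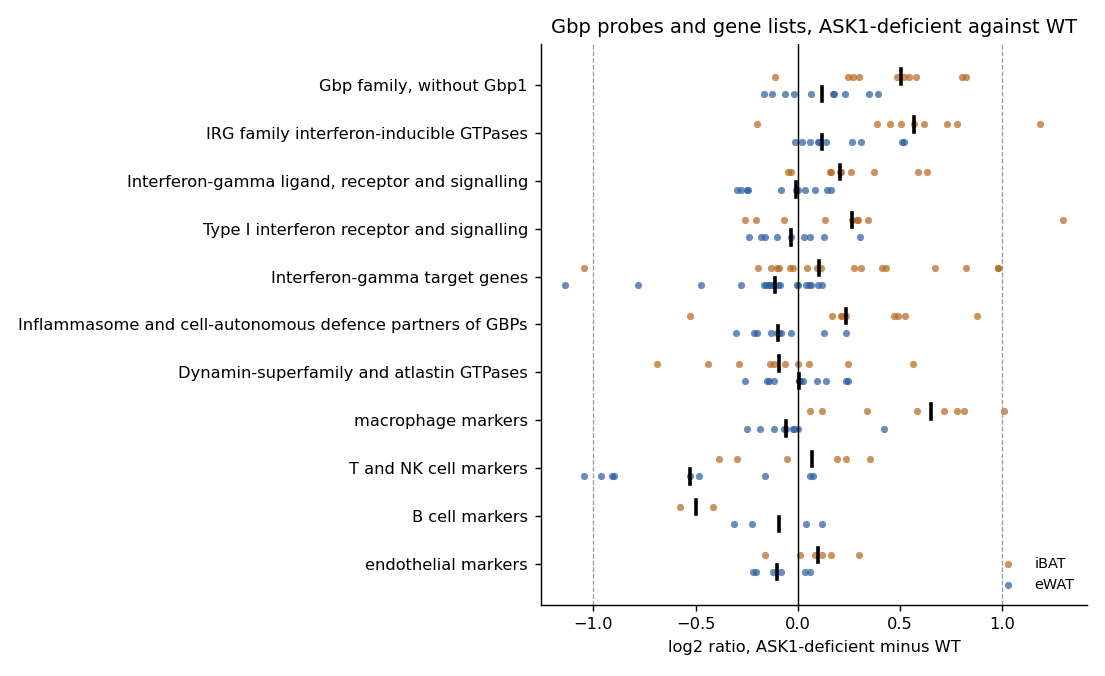
Log2 ratio (ASK1-deficient minus WT) of the 10 member probes other than Gbp1 and Gbp8 and of each measured gene of the interferon, GTPase and cell type lists, brown for iBAT and blue for eWAT, with black bars for medians and dashed lines at a 2-fold difference. In iBAT the medians of the family (0.50), the IRG list (0.57) and the macrophage markers (0.65) lie to the right of 0, and in eWAT these medians are 0.12, 0.12 and -0.06.

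Markers of macrophages were higher together with the family in ASK1-deficient iBAT. Of 9 macrophage markers 8 were measured there, all above 0, with a median log2 ratio of 0.65, and the summed level of the list was 41.5 (WT) and 51.2 (ASK1-deficient) times the 75th percentile of the array. Bright probes weigh most in those sums, and 1 Itgam probe was the brightest in iBAT, at 8399 and 10572. Its log2 ratio there was 0.27, and its WT arrays differed between depots by only 0.04. Fcgr1, an Fc receptor, gave 30.1 and 63.3 in iBAT, and Emr1, the F4/80 antigen, was at 0.92 and 0.51 at its 2 probes. In eWAT 8 of 9 were below 0, with a median of -0.06, and the summed level was 148 in WT and 139 in ASK1-deficient tissue. T and NK cell markers had medians of 0.07 in iBAT (6 measured) and -0.53 in eWAT (9 measured), with Gzma at -1.05 in eWAT. Endothelial markers had medians of 0.10 and -0.10 over 6 genes. B cell markers had medians of -0.50 (2 measured) and -0.09 (4 measured), and Ms4a1, which encodes CD20, was well above background in WT iBAT only and lower by at least 2.94-fold in ASK1-deficient iBAT. The part of these cells in the values of the family was not tested, and in pooled tissue fewer cells of a type and less RNA per cell cannot be told apart.

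Other tissue markers bear on the arrays as wholes. Brown adipocyte markers were far brighter in iBAT, with a summed level of 3896 in WT iBAT and 49.1 in WT eWAT, and white adipocyte markers in eWAT, with 371 and 1354, so the depots matched their labels. The brown markers also differed between genotypes, with summed levels of 3254 in ASK1-deficient iBAT and 16.5 in ASK1-deficient eWAT. All 8 were below 0 in iBAT, with a median log2 ratio of -0.27, and 6 of 7 measured were below 0 in eWAT, with a median of -0.97. Past 2-fold in iBAT were Elovl3, a fatty acid elongase, at -4.10, and Dio2, the deiodinase that activates thyroid hormone, at -2.37. In eWAT these were Ucp1, the uncoupling protein of brown fat, at -4.63, Cidea, a lipid droplet protein, at -2.23, and Dio2 at -1.02. Ucp1 in iBAT was at -0.44. Hepatocyte markers, which neither depot makes in quantity, had a summed level of 0.407 and 2.02 in iBAT and 29.4 and 1.60 in eWAT. In WT iBAT 1 of the 6 was well above background. In iBAT those past 2-fold were higher without ASK1, Serpina1c at a log2 ratio of 1.95 and Alb, Ahsg and Ttr by at least 5.62-fold, 5.23-fold and 2.18-fold. In eWAT all of the list were lower, Alb at -4.26, Ahsg at -5.58 and Serpina1c at -3.81, and Apoa1, Ttr and Fgb by at least 7.11-fold, 37.7-fold and 42.0-fold. The part of the brown adipocyte and hepatocyte differences in the family's values was not tested.

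The difference between the depots played no role in choosing the family, and it was tested over all 4 arrays with limma, with genotype as a term, for 27613 probes well above background on every array. With Benjamini-Hochberg adjustment over all of them, 20.8% were higher and 32.7% lower in eWAT, so a call in this fit was common. Of the 10 member probes tested, 5 were higher in eWAT and 1 lower. Gbp11 differed most, by 0.99 ± 0.21 (log2, SE; adjusted p = 0.00875 by limma), and was higher in eWAT by 1.37 on the WT arrays and by 0.61 on the ASK1-deficient arrays. The Gbp5 probes were higher by 0.68 ± 0.17 (adjusted p = 0.0152 by limma) and 0.52 ± 0.15 (adjusted p = 0.0252). Gbp4 was higher by 0.58 ± 0.19 and Gbp2 by 0.49 ± 0.16 (both with an adjusted p of 0.0417 by limma), in both genotypes.

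Gbp10 was lower in eWAT by a log2 difference of -0.60 ± 0.18 (SE; adjusted p = 0.0317 by limma), in both genotypes, but at 0.24 without scaling. Gbp3 at 0.28 ± 0.15, Gbp9 at 0.34 ± 0.20 and the Gbp6 probes at -0.17 ± 0.15 and -0.30 ± 0.15 did not pass the test, with adjusted p from 0.130 to 0.357 by limma. Gbp7, outside the 10 names, was higher by 0.54 ± 0.16 (adjusted p = 0.0270). The fit has 1 residual degree of freedom and borrows its spread from all probes. All 6 calls were lost when all probes detected on at least 1 array were tested, 13 of them members. Gbp8 was the only member called there, and its iBAT values are surrogates. Over all probes 11771 of 35303 were called in that wider set, against 14771 of 27613 in the main fit. Without scaling 9 of the 10 were higher and 0 lower, and over all probes 17865 were higher and 2403 lower, since the unscaled median of all probes was 0.71 higher in eWAT. In the same fit 11 of 13 macrophage marker probes were higher in eWAT, with a median difference of 2.55, and their part in the family's values was not tested.

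**Figure D5:**
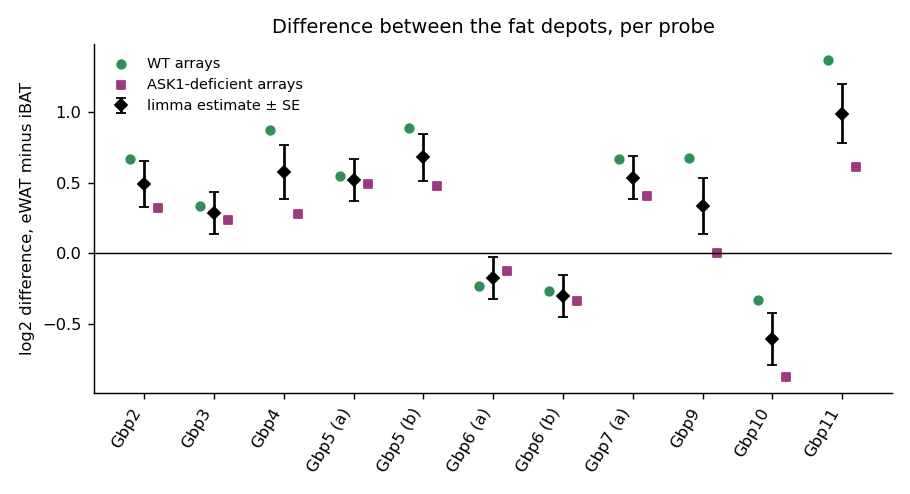
Log2 difference between eWAT and iBAT (scaled values) of the 10 member probes tested and of Gbp7, with diamonds and bars for the limma estimate ± SE over 4 arrays, green circles for the WT pair and purple squares for the ASK1-deficient pair. The estimates run from -0.60 for Gbp10 to 0.99 for Gbp11; without scaling those of Gbp6 and Gbp10 are above 0.

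Gbp1 and Gbp8 were outside that test because they were not well above background on every array. Between the WT arrays the Gbp1 probes were brighter in eWAT by 0.77 and 0.64 on the scaled log2 scale. Over the 10 tested probes both eWAT arrays were above both iBAT arrays in 7, against 32.5% of all 27613 probes.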

How the data were processed

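Total RNA pools were amplified, labelled with Cy3 and hybridized to Agilent 60-base oligonucleotide arrays. Per the file headers, spots were read with Agilent Feature Extraction 10.7.3.1 on mm9, and the authors deposited its processed signal, an intensity with background removed and dim spots replaced by surrogate values, not scaled between arrays. The deposited table of the series holds the same signal divided by 1 constant for each array, which sets its median to 1. All 4 arrays were on the same slide and read in the same scan.

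Control spots and outlier spots were left out, spots of a probe were averaged on the log2 scale, and each array's 75th percentile over all probes was taken off. A gene in a list had the mean of its probes detected on both arrays. Gene names were brought to current symbols through the RefSeq gene table (GRCm38.p6). The members and lists were chosen with earlier results of these data known. The text names all probes of the family, list members past 2-fold, up to 4 others of each list in list order, measured probes within 1 Mb of the chromosome 3 cluster (those beside the chromosome 5 cluster are summarised), and the 5 nearest patterns. Irf1, the probes named beside the chromosome 5 cluster and the promoters and probes whose bases are shown were chosen after their values were seen. A member of the interferon-gamma signalling list enters its counts and median and is not reported here by itself. Genotypes were not tested, as the family was chosen on that difference. limma 3.58.1 (R 4.3.3) tested the depots and was tested on simulated data. Python 3.11.15, numpy 2.4.6, pandas 2.3.3 and matplotlib 3.10.9 were used. Alternatives were normexp (offset 50), quantile, loess, median and no scaling, a percentile over detected probes, the series table, other dim-probe filters, a fit with no genotype term, 1.5-fold, and the brightest probe.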

Additional observations from a re-analysis of the deposited data

Results flagged for a closer look

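For 3 members the log2 ratio between ASK1-deficient and WT arrays had opposite signs in iBAT and eWAT. Gbp4 was at 0.58 in iBAT and -0.018 in eWAT, Gbp9 at 0.55 and -0.13, and Gbp10 at 0.49 and -0.060. With 1 array for each genotype and tissue the difference between the tissues was not tested. The eWAT values of Gbp4 and Gbp10 were no further from 0 than about the technical spread of 0.0599, and that of Gbp4 ran from -0.11 to 0.01 over the alternatives.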

How the results depend on the processing

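No paired analysis was possible because the groups share only 1 replicate number; the depot fit compares the depots within each genotype through its genotype term. No array was left out, since that would leave the depot fit no residual degree of freedom; a slide could not be fitted as a block because all 4 arrays share it. Both Gbp1 probes stayed at least 2-fold lower in both tissues, and 0 member probes reached 2-fold higher, under every alternative run. The mean log2 value of both Gbp1 probes was -4.26 in iBAT, where both are bounds, and -5.41 in eWAT, where 1 is a measured ratio and 1 a bound; it was -2.27 and -3.45 with normexp, whose offset lifts the dim spots, -4.16 (iBAT) with the detected-probe percentile, -4.37 (iBAT) with loess, -5.50 (eWAT) without scaling and, as a ratio to surrogate values and no bound, -6.28 (iBAT) with no filter. The median of the other members in iBAT was 0.39 with normexp and 0.61 with the detected-probe percentile, and in eWAT 0.030 without scaling. The member probes higher in eWAT numbered 5 of 10, but 9 without scaling, 6 with normexp, 4 with the detected-probe percentile, 3 with the series table, 2 without the genotype term, and 1 of 13 both with no filter and with probes well above background on at least 1 array. Of all 27613 probes 5738 were higher, but 17865 without scaling, 5977 with normexp and 6183 with the detected-probe percentile. The number was 5266 with the series table and 5622 without the genotype term. It was 4869 of 55672 with no filter and 5380 of 35303 with probes well above background on at least 1 array. The 1 lower probe, Gbp10, became 0 without scaling, with the detected-probe percentile, with no filter and with the wider probe set. Without scaling the differences of Gbp6 (0.67 and 0.54) and Gbp10 (0.24) turned positive. In the interferon and GTPase lists 2 genes were higher and 1 lower in iBAT and 0 and 1 in eWAT. In iBAT the higher count was 4 without scaling and with the detected-probe percentile, 5 with no filter and 12 at 1.5-fold, and the lower count 0 under quantile, no scaling, that percentile and loess, and 2 with no filter and at 1.5-fold. In eWAT the lower count was 0 with normexp and 2 with no filter and at 1.5-fold, and the higher count 2 with no filter. The shares of all genes past the threshold under these alternatives are not given here, so these list counts are not set against the array. Beside the loci, by alternatives chosen after seeing the data, 2 probes lower and 1 higher in iBAT became 0 and 0 with normexp and 5 and 3 with no filter, and 1 lower and 0 higher in eWAT became 5 and 3 with no filter. The counts with no filter take in ratios between spots not well above background on either array. Shares of all probes under these alternatives are not given here. Of the list medians, 6 changed sign under some setting, all of them within 0.1 of 0 under the main one. Except for the normexp offset and for settings that change which probes are tested, the cause was not tested.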

Other observations

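Beside the chromosome 5 cluster 75 other probes lie within 1 Mb, of which 38 were well above background on at least 1 iBAT array and 45 on at least 1 eWAT array. In iBAT 1 was at least 2-fold lower and 1 at least 2-fold higher, and in eWAT there was 0 of either. Both came from noncoding RNA regions, whose other probes well above background on an iBAT array did not share the difference. A probe without a gene symbol on the minus strand at chr5:105588520-105588579, between Gbp4 and Gbp10, gave 119 (WT) and 174 (ASK1-deficient) in iBAT and 315 and 295 in eWAT. Its log2 ratios of 0.49 and -0.01 lay within the range of the named members of that cluster. Lrrc8b, which lies beyond Gbp11 and encodes a subunit of a volume-regulated anion channel, was at 0.79 in iBAT and 0.27 in eWAT. Of the other subunit genes in that window, Lrrc8c was at 0.35 and 0.26 and Lrrc8d at -0.60 and -0.14.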
